A study of Bos taurus with 23 samples.

Results

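The blood transcriptome of heifers that conceived by natural breeding was set against that of heifers that conceived by artificial insemination (AI) inside 2 classes of RNA-seq library, and the genes whose difference had the same direction in both classes were collected. The contrast used the 11 heifers of station A, 5 of them NB-pregnant (pregnant by natural breeding) and 6 AI-pregnant, out of 23 heifers in the series. All were pubertal Angus and Simmental crossbred heifers that had been synchronized with a CO-Synch protocol, inseminated at a fixed time and later run with bulls, so that every NB-pregnant heifer had not become pregnant to that insemination. Peripheral white blood cells (PWBC) were taken from each heifer at insemination, before any of the pregnancies existed, and each heifer gave 1 library. A library belonged to class 1 when its 10 largest genes took more than 5% of its counts and to class 2 otherwise. Class 1 held 5 heifers, AI-pregnant heifers 4 and 5 and NB-pregnant heifers 1, 4 and 5. Class 2 held 6 heifers, AI-pregnant heifers 1, 2, 3 and 6 and NB-pregnant heifers 2 and 3.

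PWBC are a mixture of neutrophils, monocytes, lymphocytes, natural killer (NK) cells and rarer granulocytes such as basophils. These cells circulate under the influence of ovarian steroids around estrus, and after conception they meet the embryo at the uterine lining, where innate and adaptive immune functions are known to take part in the acceptance of a pregnancy. In a mixed sample of this kind, fewer cells of a type and less RNA per cell cannot be told apart.

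The classes were separated by counted total as well as by the rule itself. The share of counts in the 10 largest genes ranged from 7.12% to 12.6% in class 1 and from 2.89% to 4.08% in class 2. The total of counted read pairs ranged from 4826003 to 6105250 in class 1 and from 6832237 to 20053283 in class 2. These totals did not overlap, so class and counted total cannot be told apart. The sequenced and the aligned pairs that the study lists did overlap, and NB-pregnant heifer 2 of class 2 had the fewest of both. The same 5 libraries had the largest shares when the 20 or the 50 largest genes were counted. Of the 5, 4 carried consecutive library numbers in the sample titles, and the part of processing order in the classes was not tested. The first principal component of log2 CPM (a gene's counts scaled to a common TMM-adjusted library total), with 71.3% of the variance, followed the class, and AI-pregnant heifer 2 stood between the classes at 6.90 on an axis where the other class 2 libraries lay between 60.1 and 70.8 and the class 1 libraries between -83.1 and -48.6. Inside class 1 the share also followed the outcome: it was 7.12% and 8.52% in the AI-pregnant heifers and 10.2%, 11.2% and 12.6% in the NB-pregnant heifers. The part of these shares in the class 1 results was not tested.

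**Figure D1:**
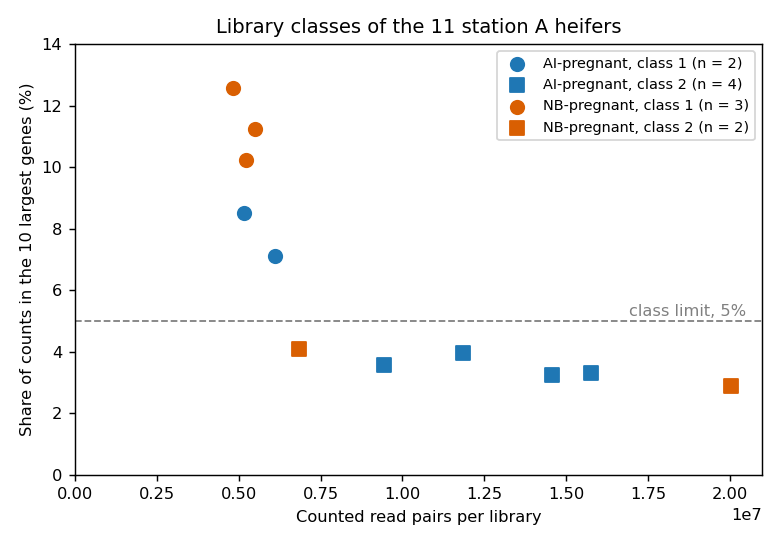
Share of counts in the 10 largest genes (%, y axis) against counted read pairs per library (x axis) for the 11 station A heifers, with circles for class 1, squares for class 2, blue for AI-pregnant and orange for NB-pregnant. The 5 class 1 libraries lie above the dashed 5% line at the low end of counted pairs, and the 6 class 2 libraries below it.

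Class went with larger differences than pregnancy outcome. Class was set from these same counts and outcome was not, so a larger class difference is partly built in. Over 12128 retained genes the median absolute log2 fold change was 0.84 between classes and 0.15 between outcomes, and 5154 genes differed by more than 1 log2 unit by class against 67 by outcome. Putting class in the model lowered the biological coefficient of variation from 0.455 to 0.244, and the classes fitted alone gave 0.231 (class 1) and 0.256 (class 2).

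With class in the model, no gene passed a Benjamini-Hochberg adjusted p of 0.05 for outcome in the edgeR quasi-likelihood test, the smallest adjusted p being 0.927. At an unadjusted p of 0.05 or less, 350 genes (2.89%) were called, 181 (1.49%) higher and 169 (1.39%) lower in NB-pregnant heifers, against 101 genes (0.833%) when class was left out. DESeq2 with the same terms called 2 genes at the adjusted threshold, both lower in NB-pregnant heifers, SIGLEC14 and ENSBTAG00000047363, and limma voom called none among its 450 genes at an unadjusted p of 0.05 or less.

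The classes were then fitted apart, so that no library was shared between the fits. Class 1 (3 NB-pregnant against 2 AI-pregnant) gave 3 genes (0.0247%) past the adjusted threshold and 258 (2.13%) at an unadjusted p of 0.05 or less. Class 2 (2 against 4) gave none past the adjusted threshold and 377 (3.11%) at the unadjusted limit. The 2 sets of effects were nearly unrelated across genes, which are not independent replicates: Pearson's r was 0.036 and Spearman's rho 0.071, and 6514 genes (53.7%) had the same sign. The difference of the outcome effect between classes, tested as an interaction, passed the adjusted threshold for no gene in edgeR, DESeq2 or limma voom, with 368 genes (3.03%) at an unadjusted p of 0.05 or less in edgeR, 454 in DESeq2 and 289 in limma voom.

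Agreement was defined as the same sign with p at or under 0.05, before adjustment, in each class fit, and 10 genes (0.0825%) met it, 2 higher (0.0165%) and 8 lower (0.0660%) in NB-pregnant heifers. A further 3 genes reached the p limit in both classes with opposite signs. In counts simulated from these libraries, with 200 of 12128 genes changed 4-fold by outcome, 184 changed genes met the agreement definition. So did 21 unchanged genes, more than the 10 genes found in the real counts. Neither that count of 10 nor meeting the definition therefore marks an outcome effect by itself. The simulated 4-fold change was larger than the effect of any agreeing gene with class in the model. How often the definition finds effects of their size was not tested. The 4 agreeing genes that the study pairs with a symbol were ALDH5A1 and MNS1, which were higher, and SIGLEC14 and FCER1A, which were lower. Because these genes were selected on their outcome effects, their values are given as a description with no test. The number depended on single libraries: it was 27 without NB-pregnant heifer 1, 21 without AI-pregnant heifer 2, 18 without AI-pregnant heifer 4 and 5 without NB-pregnant heifer 3. It was 0 at an unadjusted limit of 0.01 in both classes and 31 at a limit of 0.1.

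**Figure D2:**
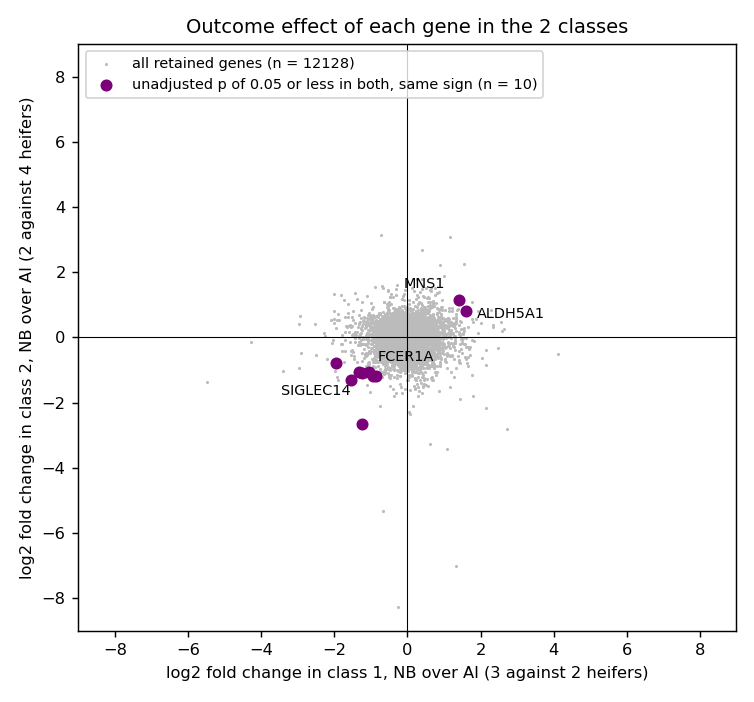
Log2 fold change of NB-pregnant over AI-pregnant in class 1 (x axis) against class 2 (y axis) for the 12128 retained genes in grey, with the 10 agreeing genes in purple. The cloud has no visible slope, and the purple points sit in the lower left and upper right quadrants, where the definition places them.

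The study's own quantitative PCR oligonucleotides for 3 of the 4 named agreeing genes are shown. They were not aligned here to the genes counted. With them the study measured RNA from PWBC of the same heifers, without class, for genes that its sequencing had already called. Each of the 3 genes had the same direction of NB-pregnant against AI-pregnant as here, which is no independent evidence of an outcome effect. The first and second oligonucleotide of each pair are given in the order and orientation in which the study lists them. None of the bases is in capitals because no position is singled out.
SIGLEC14, first: tccggctcaacgtctcctat
SIGLEC14, second: ctccaggatgggcagtgac
FCER1A, first: gtgggcagaattcagaggct
FCER1A, second: gccagaaatagttgctttgaggg
ALDH5A1, first: ccccagcaaaagaaaggcg
ALDH5A1, second: cttccgtgtgatcatggcact

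Of the 4 agreeing genes with a symbol, both that encode cell surface receptors were lower in NB-pregnant heifers. SIGLEC14 (ENSBTAG00000035868) encodes an activating lectin of myeloid cells that binds sialic acid. In class 1 it measured 7.52 and 10.1 CPM in AI-pregnant heifers 4 and 5 and 5.62, 3.16 and 2.47 CPM in NB-pregnant heifers 1, 4 and 5. In class 2 it measured 10.6, 12.04, 7.59 and 8.30 CPM in AI-pregnant heifers 1, 2, 3 and 6 and 5.18 and 4.05 CPM in NB-pregnant heifers 2 and 3. Every NB-pregnant heifer was below every AI-pregnant heifer, within each class and over all 11. The log2 fold change was -1.25 ± 0.43 (SE) in class 1, -1.09 ± 0.30 in class 2 and -1.14 ± 0.25 with class in the model, or 0.453 times the AI-pregnant level. The lowest library held 10 counted read pairs of this gene and the highest 202. SIGLEC genes have near-identical copies, and read pairs aligning to several places had been removed, so its level is uncertain to that extent.

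FCER1A (ENSBTAG00000012887) encodes the alpha chain of the high-affinity IgE receptor, carried by basophils and mast cells. Its class 1 values were 10.1 and 15.2 CPM in AI-pregnant heifers 4 and 5 against 4.69, 9.94 and 3.71 CPM in NB-pregnant heifers 1, 4 and 5. The class 2 values were 14.96, 28.9, 11.9 and 17.7 CPM in AI-pregnant heifers 1, 2, 3 and 6 against 9.59 and 8.40 CPM in NB-pregnant heifers 2 and 3. The outcomes did not overlap, although NB-pregnant heifer 4 lay just under AI-pregnant heifer 4 of the same class. The class effects were nearly equal, with a log2 fold change of -1.06 ± 0.43 (SE) in class 1 and -1.05 ± 0.37 in class 2. Per transcript length the gene measured 10.2 ± 3.54 FPKM (SD, n = 2) in class 1 AI-pregnant and 4.67 ± 2.70 FPKM (n = 3) in class 1 NB-pregnant heifers, and 19.4 ± 6.76 FPKM (n = 4) against 9.64 ± 0.527 FPKM (n = 2) in class 2.

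The higher agreeing genes belong to metabolism and to the cytoskeleton. ALDH5A1 (ENSBTAG00000021902) encodes the mitochondrial succinic semialdehyde dehydrogenase that completes the breakdown of the transmitter GABA. In class 1 it measured 25.6 and 14.9 CPM in AI-pregnant heifers 4 and 5 and 87.6, 51.1 and 45.8 CPM in NB-pregnant heifers 1, 4 and 5. Class 2 gave 18.2, 13.5, 18.7 and 19.3 CPM in AI-pregnant heifers 1, 2, 3 and 6 and 20.2 and 41.2 CPM in NB-pregnant heifers 2 and 3. NB-pregnant heifers were higher in each class, but NB-pregnant heifer 2 stood only just above the class 2 AI-pregnant heifers and below AI-pregnant heifer 4, so the outcomes overlapped over all 11. The log2 fold change was 1.59 ± 0.34 (SE) in class 1, 0.80 ± 0.29 in class 2 and 1.19 ± 0.27 with class in the model, or 2.28 times the AI-pregnant level.

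MNS1 (ENSBTAG00000000271) encodes a coiled-coil protein of the axoneme in cilia and flagella, and it was scarce in PWBC. It measured 2.58 and 1.63 CPM in AI-pregnant heifers 4 and 5 and 8.202, 4.29 and 4.45 CPM in NB-pregnant heifers 1, 4 and 5. In class 2 it measured 2.15, 0.865, 1.39 and 1.44 CPM in AI-pregnant heifers 1, 2, 3 and 6 and 4.02 and 2.71 CPM in NB-pregnant heifers 2 and 3. No AI-pregnant heifer reached the lowest NB-pregnant heifer, by a margin of 2.58 against 2.71 CPM. These levels rested on 9 to 65 counted read pairs per library. The log2 fold change was 1.41 ± 0.51 (SE) in class 1 and 1.13 ± 0.41 in class 2.

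The other 6 agreeing genes carry no symbol here, and all were lower in NB-pregnant heifers. ENSBTAG00000047363 had the largest difference of the 10 agreeing genes with class in the model, a log2 fold change of -1.92 ± 0.41 (SE). Its class 1 levels were 20.7 and 76.98 CPM in AI-pregnant heifers 4 and 5 and 20.2, 26.4 and 16.1 CPM in NB-pregnant heifers 1, 4 and 5. Its class 2 levels were 11.9, 27.9, 14.3 and 15.2 CPM in AI-pregnant heifers 1, 2, 3 and 6 and 2.33 and 3.05 CPM in NB-pregnant heifers 2 and 3. AI-pregnant heifer 4 lay inside the class 1 NB-pregnant range, and this was the only agreeing gene whose outcomes overlapped inside a class. ENSBTAG00000016152 measured 4.93 and 5.25 CPM in class 1 AI-pregnant heifers and from 1.48 to 2.81 CPM in class 1 NB-pregnant heifers, then from 1.34 to 2.20 CPM in class 2 AI-pregnant heifers and 0.778 and 0.877 CPM in class 2 NB-pregnant heifers. Its outcomes were apart in each class but crossed over all 11 libraries, since class 1 sat 1.44 log2 units above class 2. With class left out the log2 fold change was -1.05 for ENSBTAG00000047363 and -0.89 for ENSBTAG00000016152, against -1.92 and -1.17 with it.

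**Figure D3:**
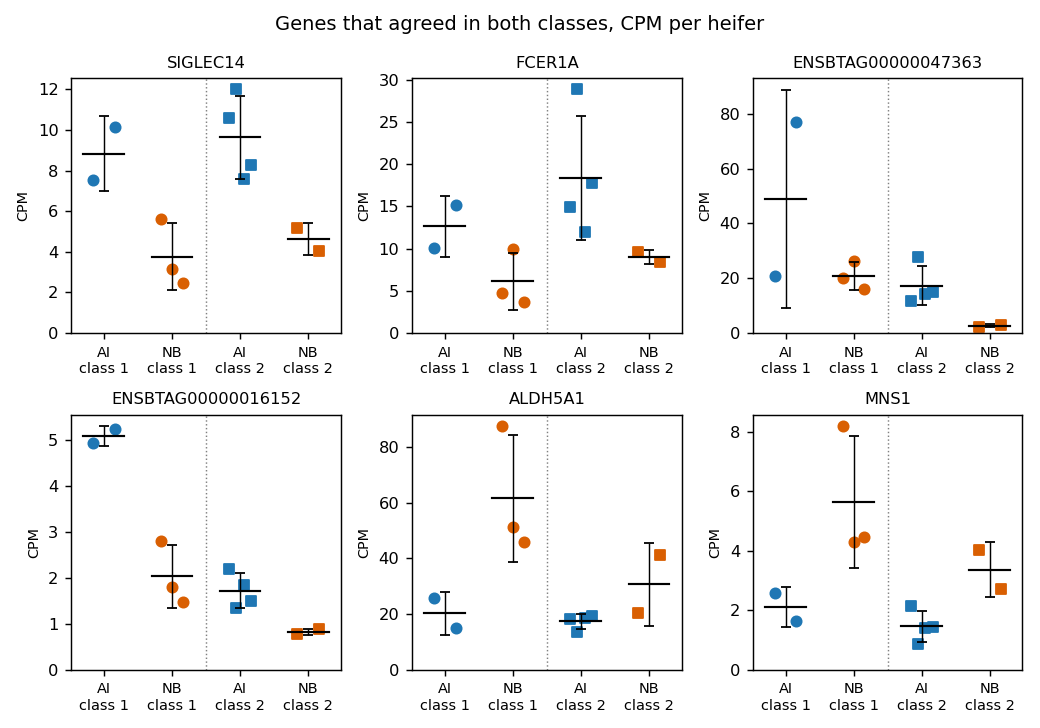
CPM per heifer (y axis, from 0) of 6 of the 10 agreeing genes, by class and outcome (x axis), with 1 point per heifer, a line at the mean and bars of 1 SD. NB-pregnant points lie below AI-pregnant points in both classes for SIGLEC14, FCER1A and ENSBTAG00000016152 and above them for ALDH5A1 and MNS1, while ENSBTAG00000047363 overlaps in class 1.

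Separation of the outcomes within a class was not rare. The outcome labels can be placed in only 10 ways in class 1 and 15 in class 2, so it often arises with no outcome effect. Outcomes did not overlap in 14.4% of genes in class 1 and in 18.8% in class 2, and 163 genes (1.34%) were separated in both classes in the same direction, 107 of them higher and 56 lower in NB-pregnant heifers. A further 149 genes, close to that number, were separated in both classes in opposite directions, so nothing is read from the 163. Over all 11 libraries separation was rare: 10 genes (0.0825%) did not overlap, and SIGLEC14, FCER1A and MNS1 were among them. SIGLEC14, FCER1A and MNS1 were selected on this contrast, so their separation is no independent evidence.

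Genes picked in 1 class kept little of their effect in the other. Of 45 genes at an unadjusted p of 0.01 or less in class 1, 24 (53.3%) had the same sign in class 2, beside 53.7% over all genes, and 1 (2.22%, beside 1.67% over all genes) had the same sign with p of 0.05 or less. Of 64 genes picked in class 2, 38 (59.4%) had the same sign in class 1 and 2 (3.13%, beside 1.07%) had it with p of 0.05 or less. The median effect in the picked direction fell from 1.27 log2 units in class 1 to 0.02 in class 2, and from 1.15 in class 2 to 0.21 in class 1.

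The study's table for station A names 18 genes, chosen on these same 11 libraries without class, so their outcome effects are described and not tested here. The sign was the same in both classes for 17 of the 18, beside 53.7% of all genes, and 4 met the agreement definition, beside 0.0825%. Of the rest, 8 reached an unadjusted p of 0.05 in class 2 only, 4 in class 1 only and 2 in neither, where 3.11% of all genes reached it in class 2 and 2.13% in class 1. Nothing is read from these shares, since the same contrast chose the genes. The study's rule (P at or under 0.01 before adjustment, by the likelihood ratio test of edgeR and also by the Wald test of DESeq2) called 18 genes (0.148%) without class. With class as a term it called 72 genes (0.594%), 26 higher and 46 lower, including 16 of the 18 and all 10 agreeing genes. TTLL1 and BOLA-DQB were no longer called. In the simulated counts the rule with class called 196 of the 200 changed genes and 111 unchanged genes. Nothing is therefore read from the rise to 72. The 18 and the 10 were chosen on this same contrast, so their recall is no independent evidence.

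**Figure D4:**
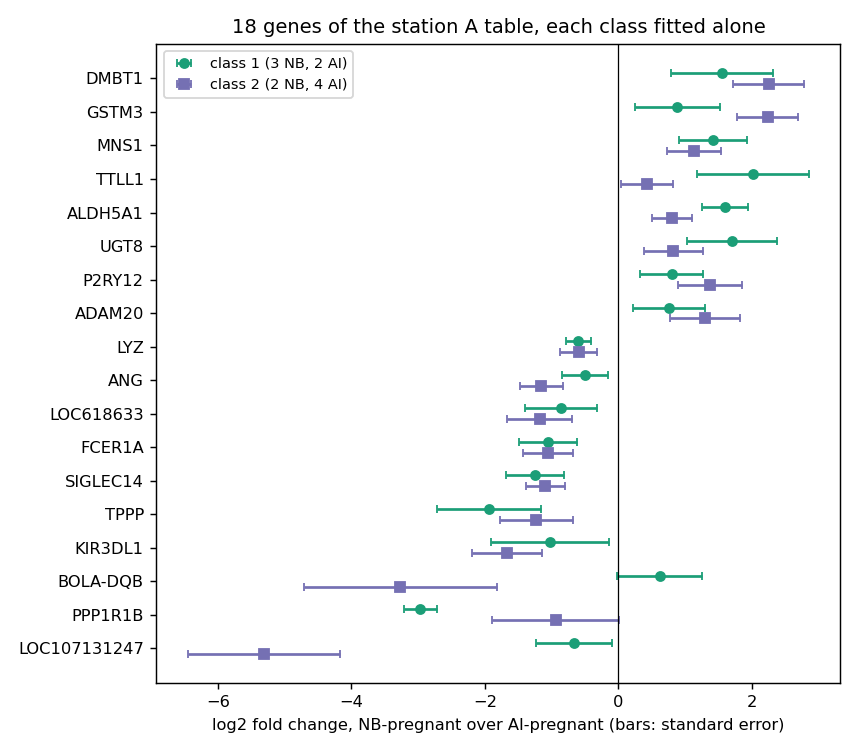
Log2 fold change of NB-pregnant over AI-pregnant (x axis, bars 1 SE) for the 18 genes of the station A table (y axis), with green circles for class 1 and purple squares for class 2, each class fitted alone. LOC107131247 has the widest gap between classes, followed by BOLA-DQB, whose points lie on opposite sides of 0, and PPP1R1B.

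Of the 3 secreted antimicrobial proteins of that table, LYZ and DMBT1 lay near the limit of agreement and ANG did not. LYZ, the lysozyme that cuts bacterial cell walls, was the most abundant of the 18, with 1394 and 1135 CPM in class 1 AI-pregnant heifers and 902, 807 and 824 CPM in class 1 NB-pregnant heifers. In class 2 it measured 898, 1559, 1017 and 935 CPM in AI-pregnant heifers 1, 2, 3 and 6 and 813 and 666 CPM in NB-pregnant heifers 2 and 3. The outcomes did not overlap in either class, and the log2 fold change was -0.60 ± 0.18 (SE) in class 1 and -0.59 ± 0.28 in class 2. It stayed just outside agreement with an unadjusted p of 0.069 in class 2, and cattle carry several lysozyme genes of similar sequence. ANG, a secreted ribonuclease, was 10.6 and 14.3 CPM in class 1 AI-pregnant and 7.499, 8.81 and 10.4 CPM in class 1 NB-pregnant heifers, and from 13.5 to 27.5 CPM against 10.1 and 7.60 CPM in class 2. It did not overlap over the 11 libraries, with a log2 fold change of -0.50 ± 0.34 in class 1 and -1.15 ± 0.33 in class 2, and its unadjusted p in class 1 was 0.17. DMBT1, a scavenger receptor that binds bacteria, went the other way, at 0.705 and 2.90 CPM against 2.34, 3.62 and 10.9 CPM in class 1 and at 0.555 to 1.21 CPM against 7.26 and 2.17 CPM in class 2. Its unadjusted p in class 1 was 0.068, just outside the limit, while the agreeing gene nearest the limit from inside had 0.046.

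The class estimates of the detoxification gene GSTM3 and of the cytoskeletal and lipid genes TTLL1, TPPP and UGT8 had the same sign, and the difference between classes had an unadjusted p above 0.05 for each. GSTM3, a glutathione S-transferase, had a log2 fold change of 0.88 ± 0.64 (SE) in class 1 and 2.23 ± 0.46 in class 2. It ranged from 0.157 to 0.463 CPM in class 2 AI-pregnant heifers and measured 1.56 and 1.34 CPM in class 2 NB-pregnant heifers, on 3 to 32 read pairs per library. TTLL1, which adds glutamate chains to tubulin, had 2.02 ± 0.84 in class 1 and 0.43 ± 0.39 in class 2. In class 2 its NB-pregnant values of 71.5 and 77.3 CPM lay inside the AI-pregnant range of 29.2 to 78.0 CPM. TPPP, which promotes tubulin polymerization, had -1.93 ± 0.78 in class 1 and -1.23 ± 0.55 in class 2. In class 1 its outcomes overlapped: AI-pregnant heifer 4 had 0.705 CPM, between the NB-pregnant values of 0.703 to 1.36 CPM, and AI-pregnant heifer 5 had 6.34 CPM. UGT8, a galactosyltransferase of myelin lipid synthesis, had 1.71 ± 0.67 in class 1 and 0.82 ± 0.44 in class 2. TPPP and UGT8 each rested on as few as 3 counted read pairs in a library.

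Other genes gave class estimates of unequal size. PPP1R1B, an inhibitor of protein phosphatase 1 in dopamine signalling, was among the 3 genes past the adjusted threshold in class 1 (adjusted p = 0.000389, edgeR), where AI-pregnant heifers 4 and 5 had 188 and 182 CPM and NB-pregnant heifers 1, 4 and 5 had 21.8, 32.5 and 17.3 CPM. That call is not independent evidence of its direction, since these libraries also chose the gene for the study's table. In class 2 NB-pregnant heifer 2 had 118 CPM, inside the AI-pregnant range of 86.2 to 173 CPM, and NB-pregnant heifer 3 had 5.81 CPM. The class log2 fold changes were -2.97 ± 0.25 (SE) and -0.94 ± 0.95. With class in the model the log2 fold change was -1.83, and -3.45 without NB-pregnant heifer 2. That fit leaves out the NB-pregnant heifer that lay inside the AI-pregnant range. It keeps only NB-pregnant heifer 3 for NB-pregnant in class 2, so nothing is read from the larger effect.

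LOC107131247, annotated as similar to a multidrug resistance-associated protein, was at 12.3, 23.1, 81.1 and 11.9 CPM in class 2 AI-pregnant heifers 1, 2, 3 and 6 and at 0.907 and 0.752 CPM in class 2 NB-pregnant heifers. In class 1 the AI-pregnant heifers had 2.11 and 4.53 CPM and the NB-pregnant heifers 2.11, 1.13 and 3.22 CPM, so the outcomes overlapped. The log2 fold change was -5.31 ± 1.14 (SE) in class 2 and -0.66 ± 0.57 in class 1, a difference of 4.62 ± 1.34. It was the only one of the 18 with an unadjusted p of 0.05 or less for that difference (unadjusted p = 0.00483, edgeR), and it did not pass the adjusted threshold.

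BOLA-DQB, a beta chain of the class II major histocompatibility complex that presents peptides to helper T cells, was the exception among the 18, with estimates of opposite sign. Class 2 AI-pregnant heifers 1, 2, 3 and 6 had 407, 577, 445 and 59.5 CPM and the NB-pregnant heifers 77.4 and 1.96 CPM. In class 1 the AI-pregnant heifers had 4.93 and 10.1 CPM and the NB-pregnant heifers 3.28, 17.2 and 14.8 CPM. The class effects were 0.62 ± 0.63 (SE) in class 1 and -3.27 ± 1.45 in class 2, and their difference of 3.88 ± 1.80 did not reach the unadjusted limit of 0.05 in the interaction test. Class 1 sat below class 2 with a log2 fold change of -3.66. This gene belongs to a polymorphic family with close copies, so its counts are uncertain.

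**Figure D5:**
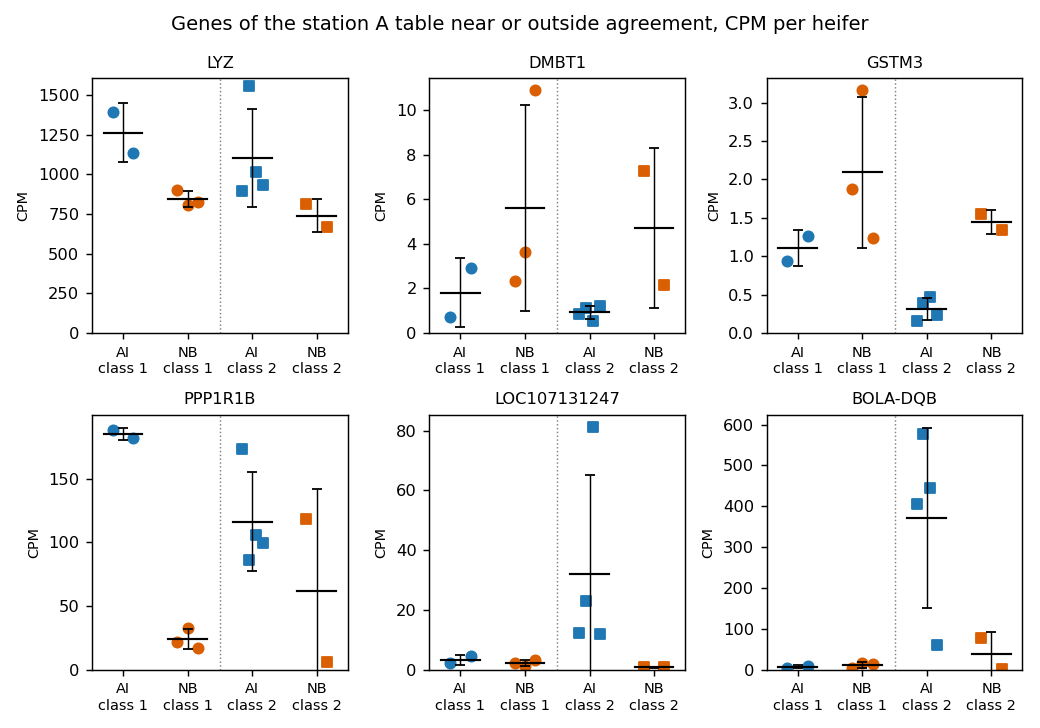
CPM per heifer (y axis, from 0) of LYZ, DMBT1, GSTM3, PPP1R1B, LOC107131247 and BOLA-DQB, by class and outcome (x axis), with 1 point per heifer, a line at the mean and bars of 1 SD that are cut at 0 where they would pass below it. LYZ separates the outcomes in both classes, PPP1R1B only in class 1 and LOC107131247 only in class 2.

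Of the remaining genes of the table, P2RY12, the ADP receptor of platelets, had log2 fold changes of 0.80 ± 0.47 (SE) in class 1 and 1.38 ± 0.48 in class 2 and did not overlap within either class. KIR3DL1, a receptor of NK cells from a family of close copies, had -1.02 ± 0.88 and -1.67 ± 0.53, on as few as 1 counted read pair in class 1. ADAM20, a membrane protein of the disintegrin and metalloprotease family, had 0.75 ± 0.54 and 1.30 ± 0.52, and LOC618633, described by the study as similar to a myeloid-associated differentiation marker, had -0.86 ± 0.54 and -1.18 ± 0.49.

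Pathway and cell type lists could be read only in small part, because the sources used here pair few gene identifiers with symbols. Of 304 list entries in 21 lists, 14 distinct genes were tested, and 12 lists had no member, including those of neutrophils, T cells and B cells, so the labelled cell type could not be checked against its markers. No member passed the adjusted threshold with class in the model. At an unadjusted p of 0.05 or less, where 1.49% of all genes were higher and 1.39% lower, 3 of 3 lectin and Fc receptors were lower (SIGLEC14, FCER1A and KIR3DL1), 2 of 2 glutathione and aldehyde genes were higher (ALDH5A1 and GSTM3), 2 of 3 microtubule genes were higher and 1 lower, and of 3 antimicrobial genes 1 was higher and 2 lower. All of these members are in the study's table, chosen on the same libraries, so their counts are no independent evidence.

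Heifers of station B, where 6 non-pregnant heifers were compared with 6 other AI-pregnant heifers, gave a reading of the agreeing genes in other animals, though for a different outcome. The station B fit had no class term, unlike the station A fit that gave the signs compared. Of the 10 agreeing genes 7 were retained there, 1 had the same sign, and none reached an unadjusted p of 0.05, beside 42.9% with the same sign over 10422 genes common to both stations and 0.443% of station B genes at that p. SIGLEC14, for example, had a log2 fold change of 0.82 in non-pregnant over AI-pregnant heifers of station B, and FCER1A had 0.09.

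The study's table for station B supplied genes that station A had not chosen, and 5 of its 6 genes were retained in station A and tested by an exact permutation test of outcome within class. None passed the test. CNKSR3, a scaffold protein of kinase signalling, came nearest, with a mean log2 difference of 0.63 (two-sided exact p = 0.06, adjusted p = 0.3 over 5 genes). The exact p was 0.9 for TFF2, a trefoil peptide of mucosa, 0.947 for TAC3, the precursor of neurokinin B, 0.893 for ALAS2, the erythroid enzyme that starts heme synthesis, and 0.347 for LOC522763. The 150 arrangements allow a smallest p of 0.00667.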

How the data were processed

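RNA from PWBC of 23 heifers was sequenced by the authors from stranded mRNA libraries. They aligned read pairs to UMD3.1, removed multiply aligned and duplicated pairs and counted against Ensembl genes with HTSeq. The deposited count tables hold whole read pairs per gene, and the deposited FPKM table, derived by the authors, gave 1 length per gene to a tolerance of 1e-06. Station A libraries held 4826003 to 20053283 counted pairs, so 1 CPM stood for 4.83 to 20.1 counted pairs.

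The authors' filter (over 1 CPM in at least 6 libraries) kept 12128 of 24616 genes. Outcome was fitted with edgeR 4.0.16 (TMM, robust quasi-likelihood) in R 4.3.3, with class as a term, within each class and as an interaction, with Benjamini-Hochberg adjustment. DESeq2 1.42.0, limma 3.58.1, other factors, filters and covariates, and leaving out each library were alternatives. Exact permutations were stratified by class, with 0.5 CPM added before log2. Python 3 with matplotlib drew the plots. The scripts were tested on simulated counts.

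The members and gene lists were chosen with earlier results of these data known. Named genes were the 18 of the study's station A table, the agreeing genes (at most 2 unsymboled identifiers per direction), the 3 leading interaction genes per direction (none has a symbol, so none is named) and list members. The 10 largest class 1 genes have no symbol either. Symbols came from the study's tables. Replicates are separate heifers, numbered in accession order, and no pair of libraries of a group agreed within sampling noise (chi-square per gene at least 11.5). Station B FPKM and unfiltered station B counts were not used here.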

Additional observations from a re-analysis of the deposited data

Results flagged for a closer look

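The total of NB-pregnant heifer 3, 20053283 counted read pairs, stood apart from the other 4 NB-pregnant heifers of station A. It was the single such case among 54 groups of values examined, where chance gives about 5% of groups. Without this heifer 5 genes agreed in both classes. The outcome effect of LOC107131247 differed between classes by 4.62 log2 units (unadjusted p = 0.00483, edgeR interaction term, 11 libraries), and no gene passed the adjusted threshold for that difference.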

How the results depend on the processing

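No paired analysis was possible because each heifer gave 1 library and had 1 outcome, and the labels match no heifers between the groups. DESeq2 called 2 genes with the class term, 7 in class 1 and 18 in class 2. With no filter on low counts, 9 genes were called in class 1, 1 in class 2 and 1 for the difference between classes, and 18 genes agreed, 9 of them shared with the 10. With more than 1 CPM required in every library 6 agreed, all among the 10. At p limits of 0.01 and 0.1, chosen after seeing the data, 0 and 31 agreed. The study's rule called 18 genes with no class term and 2 at an adjusted p of 0.05 in both tools, against 72. Leaving out each library in turn gave 0 to 2 calls with the class term (2 without NB-pregnant heifer 2), 3 to 11 in class 1 (11 without AI-pregnant heifer 5), 0 to 8 in class 2 (8 without AI-pregnant heifer 2), 0 to 1 for the difference, 5 to 27 agreeing genes and 49 to 118 genes by the study's rule. The share of genes picked in class 1 with the same sign in class 2 ranged from 34.7% to 74.1%, and from class 2 to class 1 from 46.7% to 64.7%. The share of the 10 largest genes, the first principal component or the library total (the last chosen after seeing the data) in place of class gave 0 calls. The causes of these changes were not tested. Of the 11 fits without a library, agreement was kept in 9 by ALDH5A1, 8 by SIGLEC14, 6 by FCER1A and 6 by MNS1. Only genes near 0 changed sign: TFF2 was 0.50 in limma voom and ran from -0.96 to 0.35 when a library was left out (above 0 without AI-pregnant heifer 3, 4 or 5 or NB-pregnant heifer 1 or 5), TAC3 was 0.064 in limma voom and ran from -0.41 to 0.27 (above 0 without AI-pregnant heifer 5), and ALAS2 was -0.094 with the share, -0.014 with the library total and ran from -0.19 to 0.56 (below 0 without NB-pregnant heifer 2 or 4). With 2 heifers in the smaller arm of each class, an outcome effect that misses a threshold is not shown to be absent.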
